A study of Mus musculus with 12 samples.

Results

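The integrated stress response is a signalling route in which kinases phosphorylate the translation factor eIF2, general protein synthesis falls, and the mRNA of the transcription factor Atf4 is translated more. Atf4 then raises genes that make and import amino acids, charge tRNAs and feed folate-borne carbon units into synthesis, along with genes such as Ddit3 (CHOP) that act when stress persists. In bone marrow stroma Atf4 is known for its part in osteoblast amino acid supply and matrix production. The genes described here are 40 genes of this route, chosen by symbol from the 24035 gene symbols of the count files after date-like rows were removed. They fall into 10 stress response regulators and targets, 12 enzymes of amino acid and folate-carbon synthesis, 6 amino acid transporters and 12 cytosolic aminoacyl-tRNA synthetases. Every one of the 40 symbols was found, and 39 passed the filter on low counts. The exception was Slc7a3, a cationic amino acid transporter, with 0 to 14 counts per library.

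RNA was measured in 12 libraries of C57BL/6J mouse bone marrow cells, 3 in each of 4 groups, each made from 1000 to 5000 sorted cells. Freshly sorted cells lacked CD45, Ter119 and CD31 (proteins carried by blood, erythroid and endothelial cells) and were either negative (GFPneg) or positive (GFPpos) for Scf-GFP, a fluorescent reporter of the stem cell factor gene. No gene was transduced into them. The cultured groups were stroma from Scf-GFP positive cells, grown with 20% serum, 10 ng/ml basic FGF and 2 mM glutamine and transduced either with a control vector (group control) or with 5 genes together (group rMSC, for revitalized mesenchymal stromal cells). These 5 were the transcription factors Irf3, Irf7, Klf7 and Xbp1 and the signalling adaptor Ostf1. Both cultured groups had thus been through culture and transduction. The labels give neither animal age nor time in culture. They also leave out whether libraries of 1 group had separate animals or dishes as their source, and p-values therefore cover only the spread among these libraries.

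The promoters of 4 members whose levels are described further on are shown first, because each holds the letters TGATGNAA or their reverse complement TTNCATCA, a core of the element that Atf4 binds together with C/EBP proteins. The capitals mark the match, each sequence runs 5′ to 3′ from 250 bases before to 50 bases after the annotated start, and all are RefSeq sequences of GRCm38.p6. Chac1 lies at chr2:119350992-119351291 on the plus strand, Nupr1 at chr7:126625421-126625720, Asns at chr6:7693160-7693459 and Slc7a11 at chr3:50443564-50443863, these 3 on the minus strand.
Chac1: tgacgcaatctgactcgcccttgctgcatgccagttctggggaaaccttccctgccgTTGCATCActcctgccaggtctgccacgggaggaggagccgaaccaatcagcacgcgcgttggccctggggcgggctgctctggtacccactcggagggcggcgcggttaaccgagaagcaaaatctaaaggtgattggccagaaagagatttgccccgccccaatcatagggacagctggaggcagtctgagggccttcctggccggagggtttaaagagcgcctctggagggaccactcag
Nupr1: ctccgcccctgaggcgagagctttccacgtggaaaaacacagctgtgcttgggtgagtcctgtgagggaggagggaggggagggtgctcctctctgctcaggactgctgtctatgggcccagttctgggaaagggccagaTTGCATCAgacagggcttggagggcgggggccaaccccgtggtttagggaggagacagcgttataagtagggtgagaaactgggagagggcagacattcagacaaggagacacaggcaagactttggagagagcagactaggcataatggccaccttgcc
Asns: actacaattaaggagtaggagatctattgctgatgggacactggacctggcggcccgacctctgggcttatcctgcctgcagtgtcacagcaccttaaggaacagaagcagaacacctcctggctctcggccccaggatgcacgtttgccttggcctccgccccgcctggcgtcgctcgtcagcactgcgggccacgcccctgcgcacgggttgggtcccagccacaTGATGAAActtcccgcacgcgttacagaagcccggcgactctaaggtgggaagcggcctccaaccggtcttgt
Slc7a11: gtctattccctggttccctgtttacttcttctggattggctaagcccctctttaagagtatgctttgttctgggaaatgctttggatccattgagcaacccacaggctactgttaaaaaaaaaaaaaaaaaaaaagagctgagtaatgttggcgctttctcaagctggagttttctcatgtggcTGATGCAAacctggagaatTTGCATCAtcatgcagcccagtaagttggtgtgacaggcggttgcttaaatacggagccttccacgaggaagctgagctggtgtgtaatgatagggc

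A promoter of this length was found for 32 of the 40 members, and 12 of them (37.5%, exact 95% binomial interval 21.1 to 56.3%) held TGATGNAA on either strand. Among all 27025 genes with such a promoter 1219 (4.51%) held it, and among the 11254 of these that were tested for expression 324 (2.88%) did. The letters TGATGCAA or TTGCATCA, with no free base and contained in the first motif, were in 9 members (28.1%) and in 279 of all genes (1.03%). The holders were Trib3, Chac1, Vldlr and Nupr1 of the regulators and targets, Asns and Pycr1 of the enzymes, Slc7a11 of the transporters, and Aars, Gars, Iars, Tars and Yars of the synthetases. Slc7a11 and Aars held 2 matches each. The members were assembled as genes of the Atf4 route, so these shares describe the list, and a match is neither a site shown to be bound nor a cause of any change below.

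Library totals ran from 60507051 to 85353566 counts, and levels are given in CPM, counts divided by the TMM-scaled library size and multiplied by 1e6, in the order of replicate 1, 2 and 3. In rMSC all 5 transduced genes passed the test as higher than in control, with Irf3 at 21.2, 20 and 19.9 CPM in control and 479, 485 and 481 in rMSC and Xbp1 at 283, 286 and 283 CPM in control and 509, 516 and 509 in rMSC. Reads from the vectors may be among these counts. The fresh libraries held markers of other cell types. The summed level of 10 erythroid markers was 6763 to 7081 CPM in GFPneg and 1993, 1613 and 1099 in GFPpos, that of 10 genes of dividing cells 4291 to 4649.8 and 1442, 1312 and 736, and that of 8 stroma markers at most 45.7 in GFPneg against 118549 to 143518 in GFPpos. GFPneg, labelled as stromal, thus held next to no stroma marker. GFPpos libraries also differed from each other, with granulocyte markers at 4068, 1328 and 849.8 CPM and megakaryocyte markers at 199, 3044 and 2658. In the cultures 9 erythroid markers other than Alas2 summed to at most 36.8 CPM, granulocyte markers to at most 8.71 and genes of dividing cells to at most 137. The 8 stroma markers summed to 47769 to 49184 CPM in control and 7350.3 to 7443 in rMSC, most of it from Col1a1, Col3a1 and Cxcl12. They did not move one way. Between control and rMSC Col1a1, Col3a1 and Pdgfra were lower, Kitl and Lepr were higher, with Kitl at 37.2, 35.4 and 28.8 CPM in control and 257, 236 and 256 in rMSC, and the other 3 did not pass. Their part in the changes of the members was not tested.

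The comparison of rMSC with control shows the members in cultured stroma grown in the same medium, with a control vector or with the 5 genes. Nearly the whole list was higher in rMSC. The members were chosen with earlier results of these data known, so their contrast with all genes describes the list. Of the 39 members tested, 36 passed as higher, 1, Ddit4, passed as lower, and 2, Cbs and Slc7a11, did not pass. Passed means an adjusted p under 0.05 in edgeR's quasi-likelihood test over 15163 genes, and beside these counts 24.5% of all genes tested were called higher and 25.5% lower. Past 2-fold the counts were 31 members higher and 0 lower, where 11.8% of all genes were higher and 12.5% lower by that measure. The median log2 fold change was 1.58 over the 39 members and -0.01 over all genes tested. For each of the 36, the lowest rMSC library lay above the highest control library. The share of all genes separated in this way was not computed, so this describes the members only. The summed level of the 40 members lay between 6560.4 and 7198 CPM in GFPneg and between 3185 and 3905 in GFPpos. In control it lay between 2736 and 2812 CPM, and in rMSC between 8280.2 and 8372. Fold changes below are log2 ± SE from the fit of all 12 libraries. The SE was derived as the absolute log2 fold change divided by the square root of the test's F value.

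**Figure D1:**
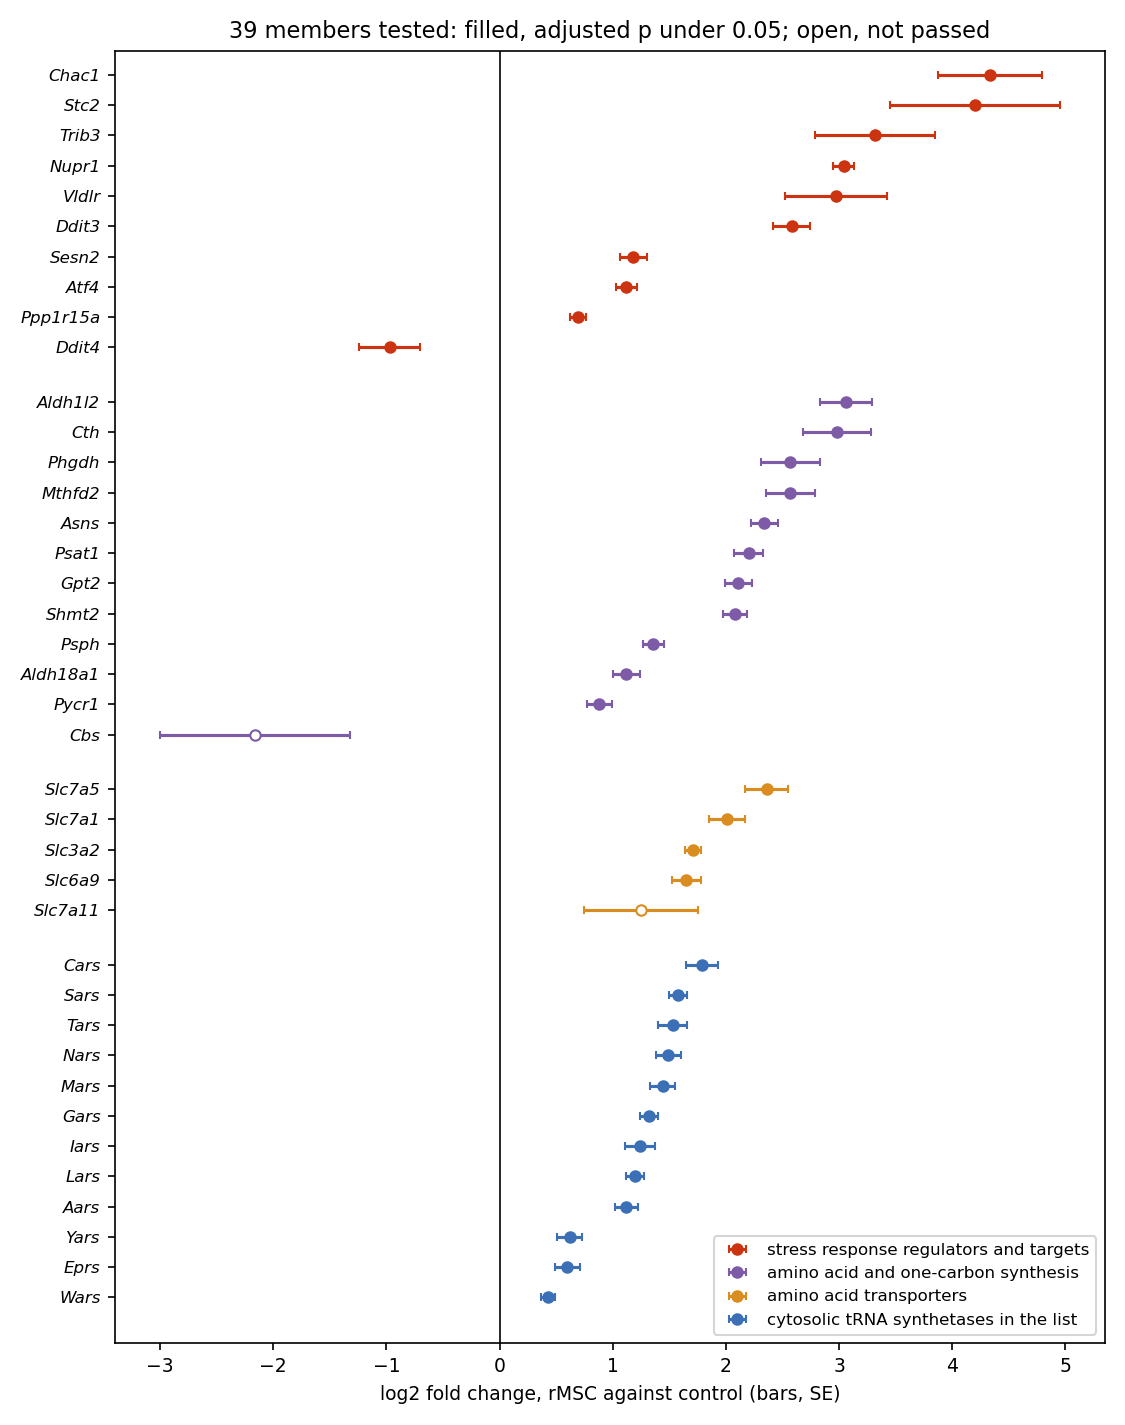
Log2 fold change of rMSC against control (x axis, bars are SE) for the 39 members tested, grouped by role; filled points have an adjusted p under 0.05, open points do not. All points but those of Ddit4 and Cbs lie above 0, from 0.43 for Wars to 4.33 for Chac1.

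Among the regulators and targets 9 of 10 rose in rMSC over control, with a median log2 fold change of 2.77 over the 10. Atf4, the transcription factor of the route, read 144, 156 and 177 CPM in GFPneg, 122, 128 and 131 in GFPpos, 60.2, 56.8 and 66.7 in control and 132, 130.4 and 137 in rMSC. Control was the lowest group and rMSC lay within the range of the fresh groups. Against control Atf4 mRNA was 2.18-fold higher in rMSC (log2 fold change 1.12 ± 0.09, adjusted p = 1.84e-06). Ddit3, the factor CHOP that pairs with C/EBP proteins, read 23.4, 28.2 and 31.9 CPM in GFPneg, 22.9, 15.1 and 22 in GFPpos, 25, 20.5 and 23.3 in control and 134, 139 and 139 in rMSC. The 3 rMSC libraries stood apart from the other 9, which lay close together, and the difference from control was 5.98-fold (log2 fold change 2.58 ± 0.16, adjusted p = 5.29e-07). Trib3, a pseudokinase that restrains Akt and Atf4 itself, read 0.99, 2.38 and 1.5 CPM in GFPneg, 1.04, 0.875 and 0 in GFPpos, 12.6, 11.9 and 12.1 in control and 119, 122 and 125 in rMSC. Control lay above every fresh library and rMSC 10-fold above control (log2 fold change 3.32 ± 0.53, adjusted p = 0.000376). Chac1, an enzyme that degrades glutathione, read 0.354, 0.501 and 0.224 CPM in GFPneg, 0.52, 2.81 and 1.1 in GFPpos, 6.05, 4.46 and 4.7 in control and 101, 107 and 98.3 in rMSC. It had the highest log2 fold change of the members, a level 20.1 times that of control (log2 fold change 4.33 ± 0.46, adjusted p = 2.18e-05), and was rank 476 of the 15163 genes ordered from the highest fold change.

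Nupr1, a small chromatin-associated stress protein, read 0.443, 0.501 and 0.472 CPM in GFPneg, 225, 217 and 265 in GFPpos, 38.6, 34.6 and 35.4 in control and 297, 291 and 303 in rMSC. It was near 0 in GFPneg, and among the other groups control was the lowest (log2 fold change 3.04 ± 0.09, adjusted p = 4.26e-09 for rMSC against control). Vldlr, a lipoprotein receptor, read 0, 0.358 and 0 CPM in GFPneg, 41.3, 90.4 and 84 in GFPpos, 15.1, 14.9 and 15.5 in control and 117, 119.8 and 119.5 in rMSC. The groups with stroma all held it and control held the least (log2 fold change 2.97 ± 0.45, adjusted p = 0.000283). Stc2, a secreted glycoprotein hormone, read 0.103, 0 and 0.0994 CPM in GFPneg, 0.47, 2.44 and 1.61 in GFPpos, 0.44, 0.805 and 0.567 in control and 11.7, 10.8 and 10.9 in rMSC, so that only the rMSC libraries exceeded 10 CPM (log2 fold change 4.20 ± 0.75, adjusted p = 0.000804). Sesn2, a sestrin that senses leucine and restrains mTORC1, read 39, 42.3 and 37.8 CPM in GFPneg, 26.6, 18.9 and 27.1 in GFPpos, 48.4, 52.9 and 48.8 in control and 115, 114 and 112 in rMSC. Every rMSC library was above the other 9 (log2 fold change 1.18 ± 0.12, adjusted p = 1.42e-05).

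Ppp1r15a (GADD34), which brings a phosphatase to eIF2 and so ends the response, read 243, 267 and 275 CPM in GFPneg, 165, 176 and 173 in GFPpos, 28.8, 29.5 and 33.1 in control and 50.6, 47.2 and 50.2 in rMSC. Both cultured groups lay below both fresh groups, and rMSC lay above control by a log2 fold change of 0.69 ± 0.07 (adjusted p = 1.67e-05). Ddit4 (REDD1), an mTORC1 inhibitor that hypoxia and glucocorticoids also raise, read 5.48, 3.01 and 6.69 CPM in GFPneg, 17.4, 11.7 and 21.7 in GFPpos, 32.2, 30.3 and 32.1 in control and 16.8, 15.6 and 16.1 in rMSC. It was the one member that fell in rMSC, to 1.95-fold below control (log2 fold change -0.97 ± 0.27, adjusted p = 0.0119), and its rMSC libraries lay inside the range of GFPpos.

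**Figure D2:**
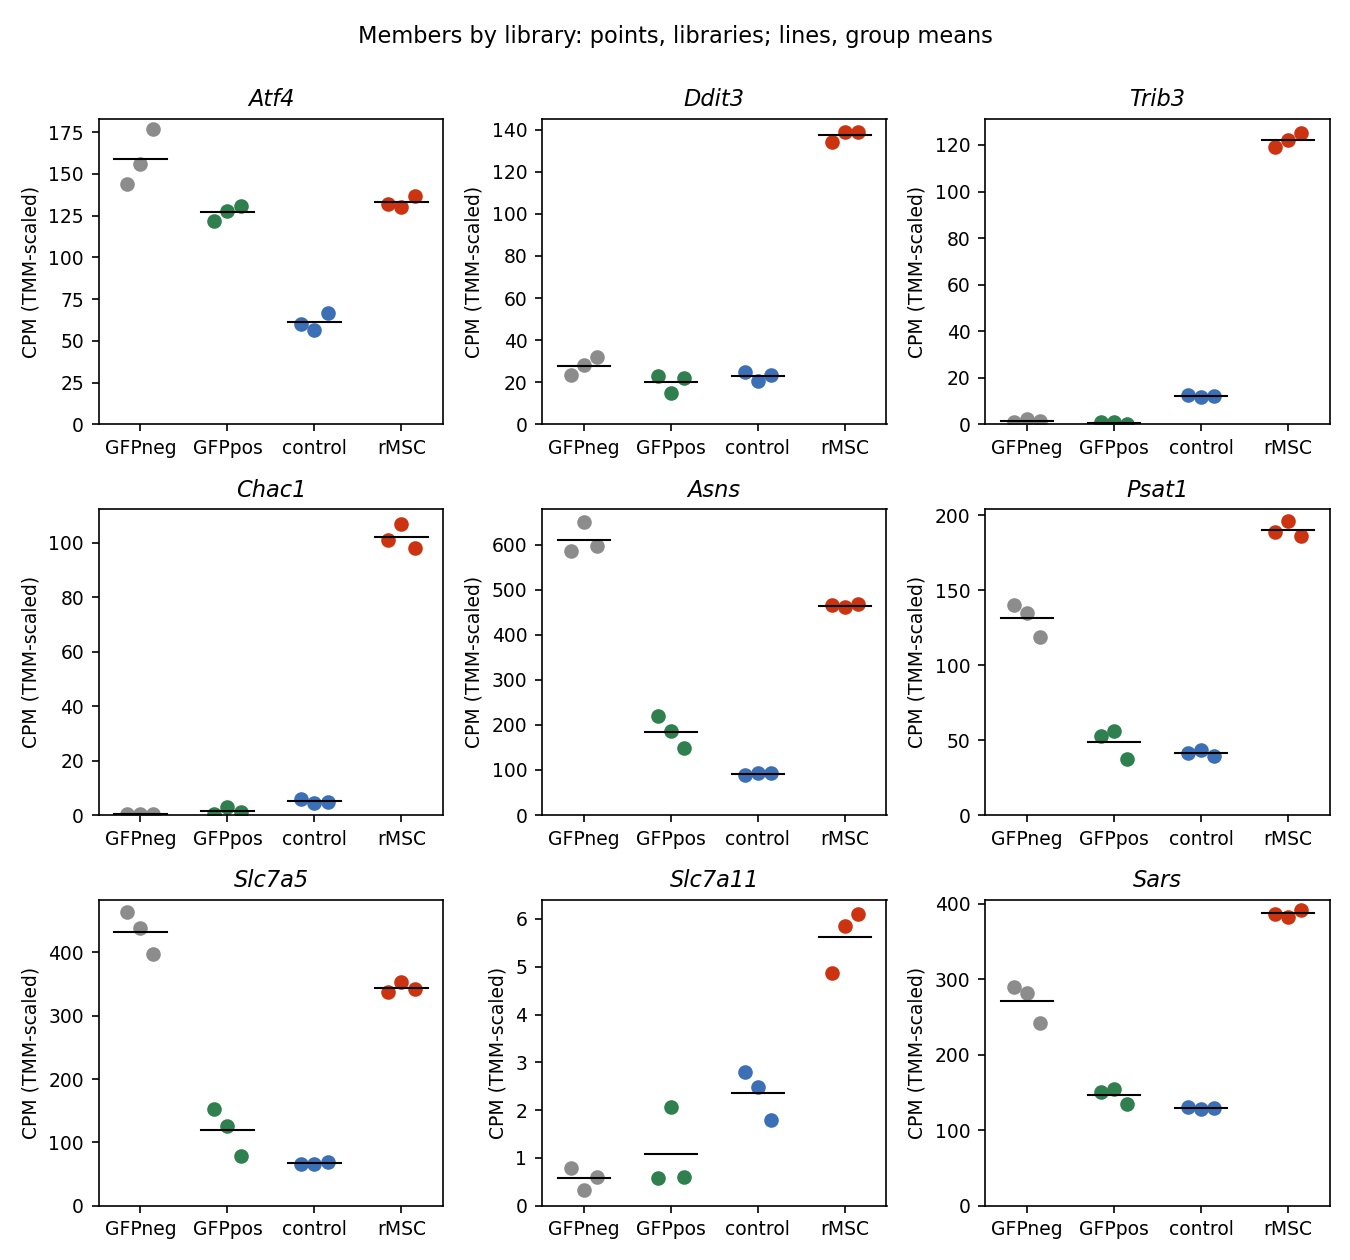
Levels in CPM after TMM scaling (y axis, linear from 0, a scale of its own in each panel) of 9 members in the 12 libraries; points are libraries and lines group means. Ddit3, Trib3, Chac1, Psat1, Slc7a11 and Sars were highest in the 3 rMSC libraries, while Atf4, Asns and Slc7a5 in rMSC lay within the range of the fresh groups.

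Of the 12 synthesis enzymes 11 rose in rMSC over control, with a median log2 fold change of 2.16. The serine branch moved together. Phgdh, which takes the first step from glycolysis to serine, read 232, 219 and 189 CPM in GFPneg, 129, 77.9 and 52.5 in GFPpos, 56.8, 56 and 49.7 in control and 313, 330.0 and 325 in rMSC. Phgdh rose by 2.57 ± 0.26 on the log2 scale over control (adjusted p = 1.44e-05). Psat1, the aminotransferase of the next step, read 140.4, 135 and 119 CPM in GFPneg, 52.6, 55.9 and 37.4 in GFPpos, 41.7, 43.3 and 39.5 in control and 189, 196 and 186 in rMSC. Psat1 rose by 2.20 ± 0.13 on the log2 scale over control (adjusted p = 3.58e-07). Psph, the phosphatase that releases serine, read 31.2, 35.5 and 31 CPM in GFPneg, 22.9, 20.2 and 21.7 in GFPpos, 17.6, 17.5 and 20.9 in control and 47.1, 49.3 and 47.8 in rMSC. Psph rose by 1.36 ± 0.09 on the log2 scale over control (adjusted p = 9.43e-07). In each of the 3 genes all rMSC libraries lay above the other 9.

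The mitochondrial enzymes that pass carbon from serine to folate were higher too. Shmt2, which splits serine to glycine, read 409, 393 and 337 CPM in GFPneg, 165, 151 and 121 in GFPpos, 58.4, 61.6 and 60.7 in control and 252, 258 and 256 in rMSC (log2 fold change 2.08 ± 0.11, adjusted p = 1.59e-07); here rMSC stayed below GFPneg. Mthfd2, which oxidizes the methylene group on folate, read 92, 109.5 and 97.8 CPM in GFPneg, 45.3, 49.2 and 23.9 in GFPpos, 19.9, 18.5 and 21.6 in control and 119.7, 119 and 118 in rMSC. Mthfd2 rose by 2.57 ± 0.22 on the log2 scale over control (adjusted p = 4.28e-06). Aldh1l2, which turns formyl-folate into carbon dioxide and NADPH, read 0.0443, 0.0477 and 0.0249 CPM in GFPneg, 21.5, 42.5 and 22.8 in GFPpos, 41, 37.3 and 40 in control and 315, 323 and 349 in rMSC. Aldh1l2 rose by 3.06 ± 0.23 on the log2 scale over control (adjusted p = 1.47e-06). Aldh1l2 was close to 0 in GFPneg and higher in every rMSC library than in the other 9, as was Mthfd2.

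Asns, which makes asparagine, read 586, 650.3 and 597 CPM in GFPneg, 219.7, 187 and 148 in GFPpos, 88.2, 94 and 93 in control and 465, 461 and 468 in rMSC. Its order was GFPneg, rMSC, GFPpos and control with no overlap between any of these groups, and rMSC was 5.06-fold above control (log2 fold change 2.34 ± 0.12, adjusted p = 1.48e-07). Aldh18a1, which starts proline synthesis from glutamate, read 396, 367 and 339.5 CPM in GFPneg, 199, 190.4 and 139 in GFPpos, 136, 137 and 129.9 in control and 284, 305 and 286 in rMSC. Aldh18a1 rose by 1.12 ± 0.12 on the log2 scale over control (adjusted p = 2.19e-05). Pycr1, the last enzyme of that branch, read 2.6, 2.44 and 2.18 CPM in GFPneg, 22.8, 30.5 and 28.1 in GFPpos, 19.2, 20.2 and 18.9 in control and 35.5, 36.5 and 35.5 in rMSC. Pycr1 rose by 0.88 ± 0.11 on the log2 scale over control (adjusted p = 9.1e-05). The smaller rise of both came with levels in GFPneg that were opposite: the highest of the groups for Aldh18a1 and the lowest for Pycr1. Gpt2, the mitochondrial alanine aminotransferase, read 0.591, 0.454 and 0.709 CPM in GFPneg, 5.84, 6.96 and 7.79 in GFPpos, 37.7, 33.7 and 35 in control and 153, 155 and 153 in rMSC, and its level went up from each of these groups to the next (log2 fold change 2.11 ± 0.12, adjusted p = 2.75e-07 for rMSC against control).

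In transsulfuration, the route from homocysteine to cysteine, Cth passed as higher and Cbs did not pass. Cth, which releases cysteine, read 0.458, 0.764 and 1.04 CPM in GFPneg, 0.148, 0.328 and 0.283 in GFPpos, 3.65, 3.48 and 2.92 in control and 27.7, 23.9 and 27.9 in rMSC; it was low in the fresh cells and 7.9-fold higher in rMSC than in control (log2 fold change 2.98 ± 0.30, adjusted p = 1.51e-05). Cbs, which takes the step before it, read 0.266, 0.0239 and 0.373 CPM in GFPneg, 0.619, 0.474 and 1.8 in GFPpos, 0.719, 0.633 and 0.448 in control and 0.131, 0.156 and 0.113 in rMSC. These levels rest on 54, 44 and 30 counts in control and 8, 10 and 8 in rMSC. All 3 rMSC libraries lay below all control libraries, but Cbs missed the threshold in the test over 12 libraries (log2 fold change -2.16 ± 0.84, adjusted p = 0.0536). With the 6 cultured libraries fitted alone it passed as lower (adjusted p = 0.00107), as it did without GFPneg replicate 2 (adjusted p = 0.0171) and without GFPpos replicate 3 (adjusted p = 0.0359).

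Of the 5 transporters tested 4 rose in rMSC over control, with a median log2 fold change of 1.71. Slc7a5, which imports large neutral amino acids such as leucine, read 463, 438 and 397 CPM in GFPneg, 153, 126 and 79.2 in GFPpos, 66, 65.5 and 69.7 in control and 337, 354 and 342 in rMSC. Slc7a5 rose by 2.36 ± 0.19 on the log2 scale over control (adjusted p = 2.81e-06). Slc3a2, the heavy chain that carries Slc7a5 and Slc7a11 to the membrane, read 242, 238 and 225 CPM in GFPneg, 181, 159 and 159 in GFPpos, 135, 142 and 140.0 in control and 459, 449 and 459 in rMSC. Slc3a2 rose by 1.71 ± 0.07 on the log2 scale over control (adjusted p = 2.7e-08). Slc3a2 was highest in rMSC, while Slc7a5 in rMSC remained below GFPneg. Slc7a1, the arginine and lysine importer, read 130.2, 95.9 and 122 CPM in GFPneg, 34.1, 38.5 and 27.2 in GFPpos, 11.9, 9.91 and 13.3 in control and 46.9, 45.4 and 49 in rMSC. Slc7a1 rose by 2.01 ± 0.16 on the log2 scale over control (adjusted p = 2.37e-06). Slc6a9, a glycine transporter, read 67.6, 68.4 and 69.7 CPM in GFPneg, 43.2, 39.6 and 27.7 in GFPpos, 29, 27.5 and 28 in control and 86.2, 91.8 and 87.7 in rMSC. Slc6a9 rose by 1.65 ± 0.13 on the log2 scale over control (adjusted p = 2.61e-06). GFPneg was far above rMSC for Slc7a1 and below it for Slc6a9. Slc7a11, the cystine importer, read 0.783, 0.334 and 0.609 CPM in GFPneg, 0.582, 2.06 and 0.602 in GFPpos, 2.8, 2.49 and 1.79 in control and 4.87, 5.86 and 6.11 in rMSC; its rMSC libraries were above the other 9, but against control it did not pass (log2 fold change 1.25 ± 0.50, adjusted p = 0.0596), and it did with the 6 cultured libraries alone (adjusted p = 3.89e-05). Slc7a3 had 12 counts, 14 counts and 4 counts in the rMSC libraries and at most 4 elsewhere, too few to test.

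All 12 listed synthetases, the cytosolic enzymes that load amino acids onto tRNAs, rose in rMSC over control, with a median log2 fold change of 1.28. Cars (cysteine) read 157, 139 and 131 CPM in GFPneg, 76.3, 60.2 and 48.3 in GFPpos, 48.5, 49.8 and 51.4 in control and 167, 172 and 178 in rMSC. Cars rose by 1.79 ± 0.14 on the log2 scale over control (adjusted p = 2.23e-06). Sars (serine) read 290.1, 282 and 242 CPM in GFPneg, 151, 154 and 135 in GFPpos, 131, 128 and 129 in control and 387, 383 and 392 in rMSC. Sars rose by 1.58 ± 0.08 on the log2 scale over control (adjusted p = 1.03e-07). Tars (threonine) read 229, 214 and 207 CPM in GFPneg, 141, 118 and 90.5 in GFPpos, 122, 129.5 and 133 in control and 374, 369.6 and 366 in rMSC. Tars rose by 1.53 ± 0.13 on the log2 scale over control (adjusted p = 4.13e-06). These 3 had the highest fold changes of the synthetases, and their rMSC libraries were above both fresh groups. Nars (asparagine) read 431, 461 and 368 CPM in GFPneg, 221, 219 and 171 in GFPpos, 223, 226 and 237 in control and 655, 645 and 629 in rMSC. Nars rose by 1.49 ± 0.11 on the log2 scale over control (adjusted p = 1.66e-06). Gars (glycine) read 426, 438 and 387 CPM in GFPneg, 229, 236 and 197 in GFPpos, 182, 189.7 and 194 in control and 469, 467 and 472 in rMSC. Gars rose by 1.32 ± 0.08 on the log2 scale over control (adjusted p = 4.11e-07). For both, rMSC was again the highest group.

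Mars (methionine) read 419, 412 and 354 CPM in GFPneg, 192, 182 and 139.7 in GFPpos, 111, 111 and 109 in control and 301, 302 and 294 in rMSC. Mars rose by 1.44 ± 0.11 on the log2 scale over control (adjusted p = 2.09e-06). Iars (isoleucine) read 438, 429 and 394 CPM in GFPneg, 154, 173 and 113 in GFPpos, 126, 131 and 129 in control and 290.3, 321 and 299 in rMSC. Iars rose by 1.24 ± 0.13 on the log2 scale over control (adjusted p = 1.82e-05). Both stayed lower in rMSC than in GFPneg. Lars (leucine) read 233, 217 and 201 CPM in GFPneg, 110.1, 122 and 99.5 in GFPpos, 112, 103 and 114 in control and 249.8, 252 and 256 in rMSC. Lars rose by 1.20 ± 0.08 on the log2 scale over control (adjusted p = 1.06e-06). Aars (alanine) read 436, 422 and 389 CPM in GFPneg, 220.3, 238 and 181 in GFPpos, 249, 242 and 250.0 in control and 535, 558 and 518 in rMSC. Aars rose by 1.12 ± 0.10 on the log2 scale over control (adjusted p = 4.25e-06). Both were highest in rMSC, in 3 of 3 libraries. Yars (tyrosine) read 251, 239 and 222 CPM in GFPneg, 135, 123 and 94.9 in GFPpos, 70.9, 76.4 and 78.6 in control and 120.3, 111 and 115 in rMSC. Yars rose by 0.62 ± 0.11 on the log2 scale over control (adjusted p = 0.000964). Eprs, the joint enzyme for glutamate and proline, read 487, 518 and 466 CPM in GFPneg, 262, 279 and 199 in GFPpos, 258, 267 and 278 in control and 409, 401 and 404 in rMSC. Eprs rose by 0.60 ± 0.11 on the log2 scale over control (adjusted p = 0.001). Wars (tryptophan), which interferon is known to raise in other cells, read 149.9, 159 and 141 CPM in GFPneg, 94.3, 99.4 and 90.6 in GFPpos, 69.5, 70.9 and 72 in control and 96.8, 91.5 and 97.7 in rMSC. Wars rose by 0.43 ± 0.06 on the log2 scale over control (adjusted p = 0.000192). These 3 had the smallest differences, each under 2-fold, with rMSC libraries below every GFPneg library.

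**Figure D3:**
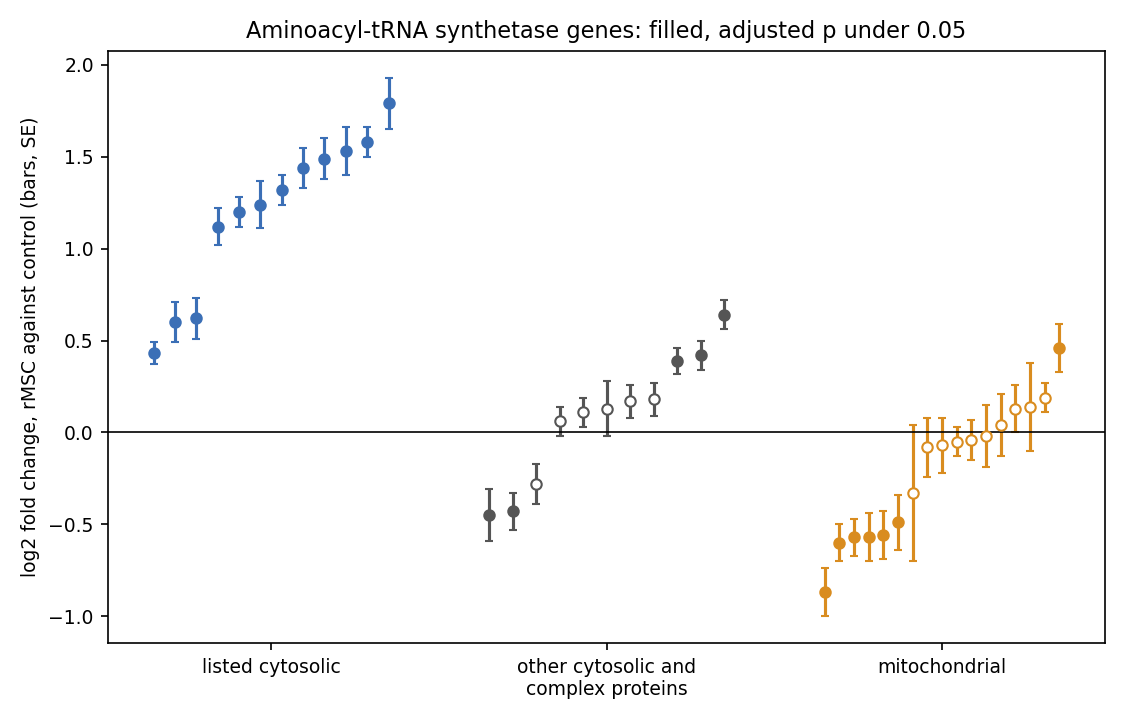
Log2 fold change of rMSC against control (y axis, bars are SE) for 12 listed cytosolic synthetases, 11 other cytosolic synthetase genes and complex proteins, and 17 mitochondrial synthetases; filled points have an adjusted p under 0.05. The listed genes lie between 0.43 and 1.79, the other cytosolic genes between -0.45 and 0.64 and the mitochondrial genes between -0.87 and 0.46.

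The remaining synthetase genes did not show this pattern. Of 11 other cytosolic synthetase subunits and proteins of the multisynthetase complex, 3 were higher in rMSC than in control (Rars, Aimp1 and Aimp2) and 2 lower (Farsa and Eef1e1), with a median log2 fold change of 0.13 and none past 2-fold. In shares these were 27.3% higher and 18.2% lower, near the 24.5% and 25.5% of all genes tested. With the 6 cultured libraries fitted alone 7 were higher, as with voom weights, and 5 without GFPpos replicate 1. The count over all genes changed with the setting too, from 3718 higher in the main fit to between 3592 and 5161 over the other settings. The count lower was 1 without control replicate 3 and without each rMSC library. Rars (arginine) read 87.7, 82 and 90.5 CPM in control and 114, 112 and 114 in rMSC (log2 fold change 0.39 ± 0.07, adjusted p = 0.00116), and Aimp1, a scaffold of the complex, read 23.4, 21.5 and 23.5 CPM in control and 34.5, 34.8 and 36.9 in rMSC (log2 fold change 0.64 ± 0.08, adjusted p = 7.26e-05). Farsa, a phenylalanine synthetase subunit, read 47.3, 46 and 53.3 CPM in control and 35.7, 36.3 and 35.1 in rMSC (log2 fold change -0.45 ± 0.14, adjusted p = 0.0213). The summed level of the 12 listed genes was 1703 to 1775 CPM in control and 4022 to 4072 in rMSC, and that of the 8 other cytosolic synthetase subunits 690.4 to 699 and 728 to 751. Among 17 mitochondrial synthetases 1 was higher (Fars2, log2 fold change 0.46 ± 0.13, adjusted p = 0.0154) and 6 lower, with a median of -0.07 and none past 2-fold. The count higher was 0 without control replicate 3 or rMSC replicate 2, and 2 without GFPpos replicate 1 or 3. The lowest was Ears2, the glutamate enzyme, at 10.4, 11.4 and 11.8 CPM in control and 6.17, 6.66 and 5.54 in rMSC (log2 fold change -0.87 ± 0.13, adjusted p = 0.000276). Lars2 alone took most of the mitochondrial sum and did not pass (log2 fold change 0.13 ± 0.13, adjusted p = 0.462). The 12 listed genes are ones often counted among the targets of Atf4, and they were listed with these data known, so the contrast with the others is a description.

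Upstream of Atf4, 15 genes of eIF2 kinases, eIF2 and its exchange factor held 4 higher and 4 lower in rMSC than in control, with a median log2 fold change of -0.03. Each count is 26.7% of the list, near the 24.5% higher and 25.5% lower of all genes tested. With the 6 cultured libraries alone 7 were higher, and the share of all genes in that fit is not given here. The count lower was 2 without GFPneg replicate 1 and without each control or rMSC library. Of the 4 kinases, Eif2ak2 (PKR, which senses double-stranded RNA and is itself interferon-induced) rose, with 46.1, 46.5 and 40.6 CPM in control and 99.3, 87.8 and 86 in rMSC (log2 fold change 1.04 ± 0.09, adjusted p = 3.55e-06). Eif2ak1 (HRI, the haem-regulated kinase) fell slightly, with 80.4, 81.3 and 82.1 CPM in control and 64.5, 70.7 and 66.7 in rMSC (log2 fold change -0.27 ± 0.10, adjusted p = 0.0455). Eif2ak3 (PERK, of the endoplasmic reticulum) read 50.6, 48 and 53.1 CPM in control and 50.7, 45.7 and 52 in rMSC (log2 fold change -0.03 ± 0.19, adjusted p = 0.922), and Eif2ak4 (GCN2, which senses uncharged tRNA) read 21.1, 18.9 and 20.9 CPM in control and 22.4, 21.3 and 29.4 in rMSC (log2 fold change 0.26 ± 0.15, adjusted p = 0.17). Neither of the last 2 passed. Kinase mRNA says nothing of kinase activity, which was not measured. Ppp1r15b, the constitutive partner of the eIF2 phosphatase, read 103, 103 and 105 CPM in control and 46.8, 49.8 and 53.5 in rMSC and fell (log2 fold change -1.05 ± 0.09, adjusted p = 6.42e-06), against the rise of Ppp1r15a.

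Among 10 bZIP factors that pair with or act beside Atf4, 5 were higher and 4 lower in rMSC than in control. Of all genes tested 24.5% were higher and 25.5% lower. Atf3 read 4.7, 5.47 and 5.41 CPM in GFPneg, 46.6, 76 and 80.6 in GFPpos, 0.453, 0.518 and 0.284 in control and 4.77, 3.16 and 2.06 in rMSC, and Jdp2, Atf5, Cebpg and Atf2 were also higher, Atf5 at 12.3, 13.1 and 12.2 CPM in control and 39.1, 35.2 and 38.1 in rMSC (log2 fold change 1.58 ± 0.17, adjusted p = 2.04e-05). Atf3 in rMSC was above control (log2 fold change 2.98 ± 0.35, adjusted p = 4.75e-05) and below GFPpos (log2 fold change -4.35 ± 0.33, adjusted p = 6.66e-07). Cebpa, a C/EBP factor of fat and myeloid cells, read 47.5, 53.1 and 51.2 CPM in control and 9.77, 8.69 and 9.87 in rMSC (log2 fold change -2.42 ± 0.26, adjusted p = 2e-05), and Cebpd, Nfil3 and Cebpb were lower as well. Of 24 other known Atf4 targets tested 16 (66.7%) were higher and 3 (12.5%) lower, with a median of 0.63. Cebpg is in both lists and counts among the higher genes of each. Pck2, the mitochondrial enzyme that makes phosphoenolpyruvate, read 56.5, 55.2 and 55 CPM in control and 332, 348 and 333 in rMSC (log2 fold change 2.60 ± 0.08, adjusted p = 4.26e-09). Fgf21, a hormone, read 0.0266, 0.0575 and 0 CPM in control and 0.392, 0.438 and 0.338 in rMSC (log2 fold change 3.70 ± 1.01, adjusted p = 0.0209). The lower genes were Slc43a1, Pmaip1 and Trib1. Slc43a1, a leucine transporter abundant in red cell precursors, read 427, 452 and 424 CPM in GFPneg, 153, 127 and 104 in GFPpos, 11.6, 12.2 and 12.3 in control and 0.196, 0.156 and 0.0282 in rMSC (log2 fold change -6.59 ± 0.30, adjusted p = 5.75e-08), and Pmaip1, the cell death gene Noxa, read 6.67, 7.51 and 10.9 CPM in control and 0.915, 1.94 and 0.959 in rMSC (log2 fold change -2.72 ± 0.49, adjusted p = 0.000839).

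Other amino acid genes did not move as the members did. Of 16 other transporters 5 were higher and 5 lower in rMSC, all past 2-fold, with a median of 0.06. Each count is 31.2% of the list, beside 24.5% higher and 25.5% lower of all genes tested. Slc38a1, a glutamine transporter, read 119, 98.1 and 106 CPM in GFPneg, 43.4, 43.7 and 23.8 in GFPpos, 4.05, 5.16 and 4.06 in control and 201, 197 and 202 in rMSC. Slc38a1 rose by 5.50 ± 0.24 on the log2 scale over control (adjusted p = 4.44e-08). Slc1a1, a glutamate transporter, read 0, 0.201 and 0 CPM in control and 1.44, 0.907 and 1.04 in rMSC (log2 fold change 4.04 ± 1.46, adjusted p = 0.0467). Slc1a2, another glutamate transporter, read 0.293, 0.129 and 0.552 CPM in control and 0, 0.0313 and 0.0846 in rMSC (log2 fold change -2.98 ± 1.09, adjusted p = 0.0483). Of 27 other amino acid and folate enzymes tested 9 were higher and 7 lower, with a median of -0.02. Gldc, which cleaves glycine, read 1.94, 2.62 and 4.22 CPM in control and 0.131, 0.0313 and 0 in rMSC (log2 fold change -5.74 ± 1.35, adjusted p = 0.00469). Prodh, which breaks down proline, read 0.626, 0.403 and 0.776 CPM in control and 2.17, 2.44 and 1.44 in rMSC (log2 fold change 1.74 ± 0.51, adjusted p = 0.0152), and Gpt, the cytosolic alanine aminotransferase, read 0.932, 0.748 and 1.28 CPM in control and 2.69, 2.47 and 1.95 in rMSC (log2 fold change 1.26 ± 0.33, adjusted p = 0.00884).

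Genes of the Xbp1 and Atf6 arms, the other branches of the response to unfolded proteins, included 2 of 16 that were higher and 8 that were lower in rMSC, with a median of -0.25. With the 6 cultured libraries alone 5 were higher. Pdia4, a disulfide isomerase, read 747, 757 and 747 CPM in control and 295, 292 and 290.1 in rMSC (log2 fold change -1.36 ± 0.11, adjusted p = 3.06e-06), and Dnajb9, a chaperone cofactor, read 49, 54.4 and 52.5 CPM in control and 86, 83.3 and 94.5 in rMSC (log2 fold change 0.76 ± 0.12, adjusted p = 0.000468). Hyou1, a large chaperone, read 51.6, 55 and 54 CPM in control and 29.3, 31.9 and 35.1 in rMSC (log2 fold change -0.74 ± 0.14, adjusted p = 0.0011). Of 16 interferon-stimulated genes 12 were higher and 1, Oasl1, lower, and Ifit1, the one with the largest rise, read 111, 116 and 118 CPM in control and 1374, 1350.2 and 1298 in rMSC (log2 fold change 3.55 ± 0.41, adjusted p = 4.12e-05). Ifit3 read 105, 102 and 109 CPM in control and 946, 911 and 909 in rMSC (log2 fold change 3.13 ± 0.18, adjusted p = 2.5e-07), and Oas1a read 12.4, 11.3 and 12.2 CPM in control and 106, 108 and 105 in rMSC (log2 fold change 3.15 ± 0.15, adjusted p = 6.93e-08).

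Set against GFPpos, the fresh cells from which such cultures were grown, 32 of 39 members were higher in rMSC and 2 lower, where 33.4% of all genes were higher and 38.2% lower. The median log2 fold change was 1.33, against -0.08 over all genes. Both this comparison and the next share libraries with the one before. In 25 members all 3 rMSC libraries lay above the other 9 libraries, as in 18.7% of all genes tested. The members furthest above GFPpos were Trib3 (log2 fold change 7.53 ± 0.67, adjusted p = 2.07e-06), Cth (log2 fold change 6.73 ± 0.38, adjusted p = 6.1e-08), Chac1 (log2 fold change 6.14 ± 0.51, adjusted p = 1.28e-06) and Gpt2 (log2 fold change 4.49 ± 0.14, adjusted p = 1.85e-09), all of which had under 8 CPM in every GFPpos library. One GFPpos library had no count of Trib3, and without GFPpos replicate 1 its log2 fold change was 8.14. Without GFPpos replicate 2 that of Chac1 was 7.02 and that of Slc7a11 3.24 in place of 2.38. The lower members were Ppp1r15a (log2 fold change -1.80 ± 0.07, adjusted p = 7.32e-09) and Cbs (log2 fold change -2.84 ± 0.86, adjusted p = 0.0119). Cbs was at under 2 CPM throughout, and without GFPpos replicate 3 its value was -2.02 with an adjusted p of 0.0474. Atf4 itself did not pass (log2 fold change 0.07 ± 0.08, adjusted p = 0.468), nor did Wars (0.01), Yars (-0.03), Ddit4 (-0.07) and Vldlr (0.73 ± 0.42). Vldlr passed without GFPneg replicate 2 (adjusted p = 0.0227) and with voom weights, under which Slc7a1 (adjusted p = 0.112) and Cbs (adjusted p = 0.0505) did not.

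In control against GFPpos, the comparison of cultured with fresh cells without the 5 genes, 6 members were higher and 18 lower, against 32.5% and 35.9% of all genes, and 15 did not pass. The share of members that were lower, 46.2%, is to be read against that background. The median log2 fold change was -0.26, against -0.04 over all genes. The higher members were Trib3 (log2 fold change 4.20 ± 0.61, adjusted p = 0.000107), Cth (log2 fold change 3.75 ± 0.34, adjusted p = 3.47e-06), Gpt2 (log2 fold change 2.37 ± 0.13, adjusted p = 8.53e-08), Chac1, Sesn2 and Ddit4. The furthest below were Nupr1 (log2 fold change -2.70 ± 0.08, adjusted p = 4.62e-09), Ppp1r15a (log2 fold change -2.49 ± 0.07, adjusted p = 4.25e-09) and Vldlr (log2 fold change -2.24 ± 0.44, adjusted p = 0.000956). Atf4 was lower as well (log2 fold change -1.05 ± 0.09, adjusted p = 1.4e-06). Of the synthetases 4 were lower (Gars, Mars, Wars and Yars) and 8 did not pass. The calls for Phgdh, Slc6a9 and Gars were each lost without any 1 of 4 libraries. For Phgdh these were GFPpos replicate 1 and each control replicate (adjusted p up to 0.137), for Slc6a9 GFPpos replicates 1 and 2 and control replicates 2 and 3 (up to 0.0826), and for Gars GFPpos and control replicates 1 and 2 (up to 0.0989). Of the 15 that did not pass, 10 did so under at least 1 alternative, among them Slc7a11 without GFPpos replicate 2 (log2 fold change 2.00, adjusted p = 0.00159). Without that library the value for Chac1 was 2.69 in place of 1.82, and without GFPpos replicate 1 that for Trib3 was 4.81. Vldlr missed the threshold in DESeq2 (adjusted p = 0.0781).

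In GFPpos against GFPneg, 9 members were higher and 28 lower, against 40.5% and 36.5% of all genes. None of these 37 had overlapping groups, but the share of all genes without overlap was not computed. The median log2 fold change was -0.90, against 0.08 over all genes. All 12 listed synthetases were lower, by 0.66 (Wars) to 1.52 (Iars) on the log2 scale, and so were all 11 other cytosolic genes of that kind and 15 of 17 mitochondrial ones. Slc7a5 (log2 fold change -1.86 ± 0.19, adjusted p = 4.05e-06), Slc7a1 (log2 fold change -1.80 ± 0.16, adjusted p = 1.21e-06) and Asns (log2 fold change -1.72 ± 0.12, adjusted p = 2.61e-07) were the members furthest below GFPneg. All 9 higher members were at under 7 CPM in every GFPneg library, among them Aldh1l2 (log2 fold change 9.47 ± 0.39, adjusted p = 4.56e-09), Vldlr (log2 fold change 9.11 ± 0.68, adjusted p = 3.88e-07), Nupr1 (log2 fold change 8.95 ± 0.12, adjusted p = 7.71e-12), Pycr1 and Gpt2. In GFPneg 2 of the 3 libraries had no count of Vldlr, so that the size of its fold change rested on GFPneg replicate 2. Without that library Vldlr still passed as higher (log2 fold change 15.25, adjusted p = 2.11e-07). The value for Stc2 was 3.87 without GFPneg replicate 2, and that for Chac1 1.11 without GFPpos replicate 2. Cbs (log2 fold change 2.12 ± 0.82, adjusted p = 0.0357) passed narrowly. Its value was 2.74 without GFPneg replicate 3 and 1.30 without GFPpos replicate 3 (adjusted p = 0.163). Its call was also lost without GFPneg replicate 1 (adjusted p = 0.0683) or 2 (0.0623), without any 1 of the 6 cultured libraries (0.0507 to 0.053), with voom weights (0.0589) and with the 6 fresh libraries alone (0.0826). Trib3 (log2 fold change -1.30 ± 0.61, adjusted p = 0.0728) and Slc7a11 (log2 fold change 0.91 ± 0.51, adjusted p = 0.129) did not pass, though Trib3 did without GFPpos replicate 1 (adjusted p = 0.0289) or 3 (adjusted p = 0.0373), and Slc7a11 without GFPpos replicate 1 (adjusted p = 0.0496).

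Markers of red cell precursors and of dividing cells were several times higher in GFPneg than in GFPpos, as given above, and they moved with these 28 members; their part in the differences was not tested. Fewer cells of a type and less RNA per cell cannot be told apart in such bulk samples. Within GFPpos, replicate 3 had the lowest erythroid and dividing-cell sums. It also had the lowest sums of general blood cell (204 CPM), granulocyte (849.8) and macrophage (23.9) markers, but not of megakaryocyte or endothelial ones. Its TMM factor, 0.8711, was the lowest of the 12 libraries. Replicate 3 was the lowest GFPpos library for 22 of the 39 members tested (56.4%), against 36.9% of all genes tested. Whether these differences between libraries go together was not tested. Among the 28 lower members the count was 21 (75.0%), but these were called lower with the same GFPpos libraries. The share over all genes lower in GFPpos was not computed. Other scalings moved the median of all genes in this comparison by 0.126 (RLE factors), 0.137 (upper-quartile factors) and 0.168 (the 6 fresh libraries alone) on the log2 scale. Under these 3 the calls for Atf4 (adjusted p 0.054, 0.0726 and 0.401) and Ddit3 (0.064, 0.0761 and 0.291) were lost, with the direction kept. Ddit3 also lost its call in DESeq2 (adjusted p = 0.0539) and without GFPneg replicate 3 (adjusted p = 0.0758). Cth lost its call with voom weights (adjusted p = 0.209) and with the 6 fresh libraries alone (adjusted p = 0.0781).

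**Figure D4:**
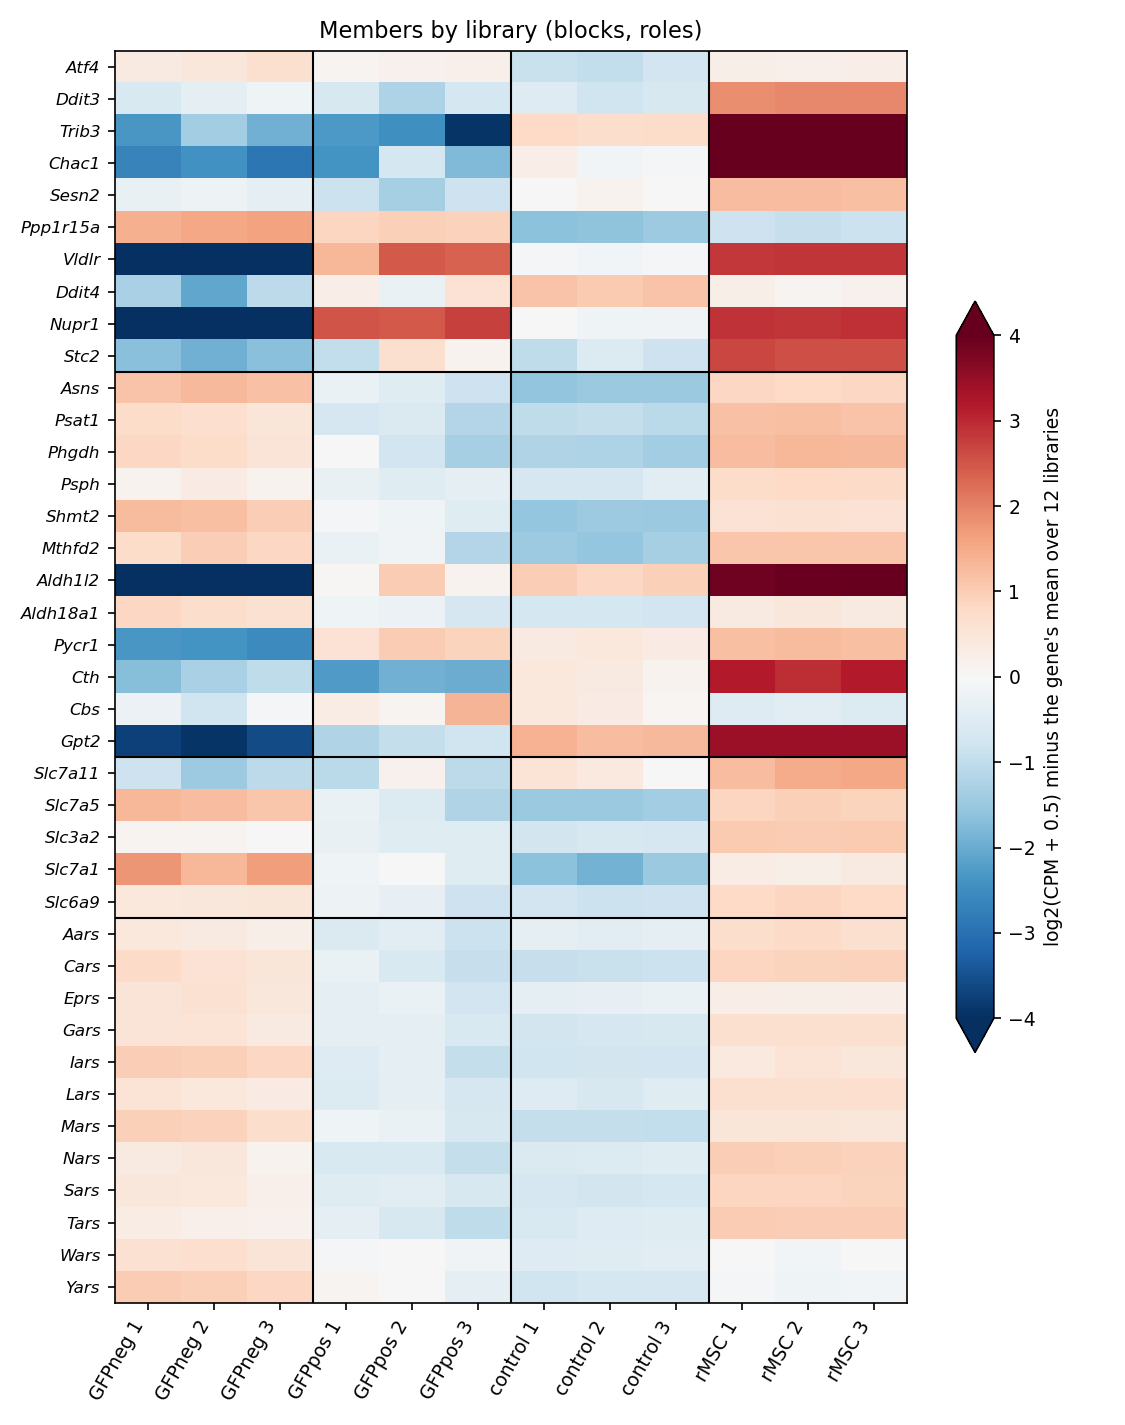
Level of the 39 members tested (rows, in blocks by role) in the 12 libraries (columns), as log2(CPM + 0.5) minus the gene's mean over the libraries; colours are capped at 4 either way. The synthetase block is lower in GFPpos and control than in GFPneg and rMSC, except that Wars and Yars are alike in GFPpos and rMSC. Vldlr, Nupr1 and Aldh1l2 are far below their mean in GFPneg.

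Per kilobase of annotated exon, the most abundant members in rMSC were Asns (mean 169.9 CPM per kb), Gars (150.5) and Nars (148), and in control Gars (60.4) and Nars (52.6) ran ahead of Asns (33.6). Atf4 had a mean of 56.5 CPM per kb in rMSC and 26 in control, and Ddit3 80.1 and 13.4. These levels use the union of annotated exons in GENCODE M21, which may differ from the transcripts these cells make. Exons of 9 members share bases with another gene in the files, in 8 of them only on the opposite strand, such as 68 bases of Ddit3 and Mars and 1056 bases of Aldh1l2 and D10Wsu102e; whether reads were counted by strand is not given in the sources used here, so the counts there may hold some reads of the neighbour.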

How the data were processed

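RNA sequencing gave 12 libraries, 3 per group. Per the labels' protocols, total RNA was amplified with a SMART-Seq v4 kit and read as single ends. The deposited values are raw counts per gene symbol, 1 file per library, with no normalization by the authors. Per the submitters' processing notes, STAR 2.4.1c and featureCounts 1.4.6 were used with the mm10 build.

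From these counts, 27 date-like rows were left out (0.183 to 0.369% of counts). The remaining counts were fitted by edgeR 4.0.16 under R 4.3.3, by its quasi-likelihood test with TMM factors after filterByExpr, on all 12 libraries with group as the only term. Benjamini-Hochberg adjusted p under 0.05 over 15163 genes was the threshold, with 8 residual degrees of freedom. The shared spread pools variable fresh libraries with closely agreeing cultures. The binomial interval treats the members as a random draw of genes, which a chosen list is not.

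The 40 members, the lists of other genes and the rule for named genes were chosen with earlier results of these data known. By that rule every member may be named. Values in every library are given for members past the threshold and 1.5-fold in rMSC against control, and for Atf4, Ddit3 and Asns. Of each other list up to 3 genes with the largest change past the threshold are named, with all eIF2 kinases. Further genes that a small count singled out, or that show a direction, were chosen after their values were seen.

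Positions and exon lengths come from GENCODE M21 (GRCm38), and promoters from RefSeq. The alternatives tried were no filter, a minimum of 50 counts in 3 libraries, upper-quartile or RLE factors, DESeq2 1.42.0, the 6 libraries of a comparison alone, the replicate number as a block, limma 3.58.1 voom with quality weights, a 2-fold threshold, and each library left out in turn.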

Additional observations from a re-analysis of the deposited data

How the results depend on the processing

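No member that passed the test changed sign under an alternative, and none passed in the opposite direction. Of those that did not pass, 7 results changed sign. They were Cbs, Eprs, Lars and Tars in control against GFPpos and Ddit4, Wars and Yars in rMSC against GFPpos. A 2-fold threshold cut the counts most. In GFPpos against GFPneg it left 14 members lower and 2708 of all genes lower. In control against GFPpos it left 7 members lower, 2626 genes higher and 3418 lower. In rMSC against control it left 0 members lower, 1784 genes higher and 1898 lower, and in rMSC against GFPpos 3001 genes higher. Cbs made the count of members lower than control in rMSC 2 in DESeq2, with at least 50 counts, with the 6 libraries alone and with voom weights. Voom left 1 member lower in rMSC than in GFPpos. Over the other settings the members higher in rMSC than in control numbered 36 to 37, and all genes 3592 to 5161. With 1 library left out, members higher and lower were 8 to 10 and 27 to 29 in GFPpos against GFPneg. They were 6 to 9 and 15 to 22 in control against GFPpos, 36 to 37 and 1 to 2 in rMSC against control, and 32 to 33 and 2 to 2 in rMSC against GFPpos. Among the other lists in rMSC against control, the 6 libraries alone gave 7 eIF2 genes and 3 mitochondrial synthetases higher, and 11 other enzymes lower. The cause of these differences was not tested.

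Whether replicate numbers pair the fresh libraries is not known. In GFPpos against GFPneg, same-numbered deviations correlated at 0.12, 0.118 and 0.0118 for replicates 1, 2 and 3. Between replicates 1 and 2 the crossed correlations were -0.125 and -0.101. In the other comparisons same-numbered deviations correlated at -0.0255 to 0.0199. With the replicate block, members higher and lower were 36 and 1 in rMSC against control and 32 and 2 in rMSC against GFPpos. In control against GFPpos they were 7 and 18, Aars joining the higher ones, and in GFPpos against GFPneg 9 and 28. The stricter motif TGATGCAA left 28.1% of the members' promoters. At the depth of these libraries, Slc7a3 and genes with a few counts, such as Fgf21, could not be compared with precision.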

Other observations

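Alas2, the first enzyme of haem synthesis in red cell precursors and a marker list gene here, was the one erythroid marker that was higher in rMSC than in control. It read 0.2, 0.316 and 0.194 CPM in control and 35.1, 31.7 and 31 in rMSC (log2 fold change 7.10 ± 0.23, adjusted p = 8.76e-09). The other 9 erythroid markers summed to 31.1 to 36.8 CPM in control and 6.83 to 7.86 in rMSC, most of it from Tfrc, the transferrin receptor of many cell types, at 29.9, 35.5 and 30.9 CPM in control and 6.3, 7.14 and 6.23 in rMSC. Alas2 was chosen after its values were seen.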
